A study of Bos taurus with 30 samples.

Results

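The miRNAs described are the mature products of the miR-17-92 cluster and of its X-linked paralog that carry these names in bovine annotation, namely bta-miR-17-5p, bta-miR-17-3p, bta-miR-18a, bta-miR-18b, bta-miR-19a, bta-miR-19b, bta-miR-20a, bta-miR-20b, bta-miR-92a and bta-miR-106a, written below without the prefix for cattle. They were picked by name, with no threshold on their values but with earlier results of these data known, and are 10 of 1030 mature miRNAs listed. Of these 1030 miRNAs, 863 had a read in at least 1 library and 476 passed a filter on low values. All 10 members had reads in all 30 libraries and passed the filter.

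They were measured by small RNA sequencing of the arcuate nucleus (ARC), a hypothalamic centre that senses metabolic status, in 30 Holstein-Friesian bull calves. From 2 to 12 weeks of age, 15 calves were on a high (HI) plane of nutrition, with 1.5 kg (10 litres) of milk replacer a day and concentrates ad libitum. The other 15 were on a moderate (MOD) plane, with 0.5 kg (4 litres) of milk replacer and 0.5 kg of concentrates a day. Each calf gave 1 library of bulk tissue, so fewer cells of a type and less RNA per cell cannot be told apart. The labels name calves by animal code, and the replicate numbers used below were given in the order of the records and only name a calf.

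The miR-17-92 cluster is transcribed as 1 long RNA from which several hairpins are cut, and each hairpin leaves a mature miRNA that loads into an Argonaute protein and pairs with messenger RNAs through a short seed near its 5′ end. By seed, miR-17-5p, miR-20a, miR-20b and miR-106a form the miR-17 family, miR-18a and miR-18b the miR-18 family, miR-19a and miR-19b the miR-19 family, and miR-92a belongs with miR-25, miR-32, miR-92b and miR-363. The cluster is known as an oncogenic, MYC-induced locus that restrains the apoptosis factor BIM, and in the developing nervous system for its role in the expansion of neural progenitors. In the RefSeq annotation of cattle, MIR17, MIR18A, MIR19A, MIR20A, MIR19B and MIR92A-1 follow each other next to GPC5. On the X chromosome MIR363, MIR92A-2, MIR19B-2, MIR20B, MIR18B and MIR106A follow each other next to CCDC160. A further relative, MIR106B with MIR93 and MIR25, lies inside MCM7, a gene of DNA replication. Of these, miR-363, miR-106b, miR-93 and miR-25, with miR-92b and miR-32 of the miR-92a seed family, are given below as 6 relatives.

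A library held from 6291376 to 21083250 reads counted on miRNAs, with medians of 8512614 in HI calves and 8811432 in MOD calves. The libraries fell into 21 shallower ones (12 HI and 9 MOD), of at most 8988039 reads, and 9 deeper ones (3 HI and 6 MOD), of at least 17193358 reads. Levels are given as counts per 1000000 reads (CPM) over library sizes that the authors scaled, and 3 reads, taken as the floor of detection, were worth between 0.138 and 0.558 CPM. Summed levels of 9 neuronal miRNAs, miR-124a and miR-9-5p among them, ranged from 21671 to 99474 CPM in HI calves and from 28831 to 94589 CPM in MOD calves, and none of the 9 was at 0 in any library.

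The 10 miRNAs took between 0.539% and 0.838% of the reads of a library, with a median of 0.616%. Small RNA library kits capture some sequences better than others, so the order of levels between miRNAs is an order of read counts. miR-92a, with a seed of its own within the cluster, was the most abundant member, at 3899 CPM in the lowest calf, a median of 5143 CPM and 8602 CPM in the highest. It alone accounted for between 78.2% and 89.1% of the summed level of the 10 miRNAs, and ranked 39 by mean level among the tested miRNAs.

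miR-19b followed at a median of 557 CPM (405 to 751 CPM). The median of miR-17-5p was 140 CPM (123 to 207 CPM) and that of miR-20a was 101 CPM (82.8 to 181 CPM). These 4 miRNAs kept their order in each of the 30 calves, although the ranges of miR-17-5p and miR-20a overlapped across calves. miR-19a, from the same hairpin series, had a median of 70.5 CPM (51.3 to 104 CPM) and was below miR-20a in 27 of 30 calves. miR-18a had a median of 63.9 CPM (26.4 to 119 CPM), and miR-19a was above it in 18 of 30 calves, so their order did not hold beyond the spread.

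miR-17-3p, the passenger arm of the miR-17 hairpin, had a median of 18.8 CPM (14.4 to 22.9 CPM) and was below miR-18a in all 30 calves. The 3 members that, in the annotation, only the X-linked cluster encodes had the lowest medians of the 10, while miR-363, a product of that cluster outside these members, had a median of 62.2 CPM. miR-20b had a median of 14.2 CPM (6.51 to 25.8 CPM), miR-106a of 12.2 CPM (5.38 to 19.4 CPM) and miR-18b of 5.51 CPM (1.12 to 11.3 CPM). miR-17-3p exceeded miR-20b in 22 of 30 calves and miR-20b exceeded miR-106a in 23, so these 3 neighbours overlapped, while miR-106a exceeded miR-18b in all 30. The lowest value of miR-18b rested on 6 reads, in HI replicate 7, and in the other libraries it rested on 16 reads or more.

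Each of these 3 X-linked members was a small part of the pair it forms with its near-identical counterpart from the miR-17-92 cluster. miR-106a was 7.58% ± 1.43 (SD, n = 30) of the sum of miR-106a and miR-17-5p, and miR-18b was 8.08% ± 1.79 (SD, n = 30) of the sum with miR-18a. miR-20b was 11.8% ± 2.65 (SD, n = 30) of the sum with miR-20a. Because the mature sequences of these pairs are near-identical, a read with a mismatch could be placed on the wrong relative, which was not tested.

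miR-19b and miR-92a have a precursor in both clusters, and their values cannot be divided between the 2 loci. Recovered reads were not always whole numbers for these 2 members, with fractional reads in 17 of 30 libraries for miR-19b and in 13 of 30 for miR-92a. The other 8 members had whole reads in all 30 libraries.

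**Figure D1:**
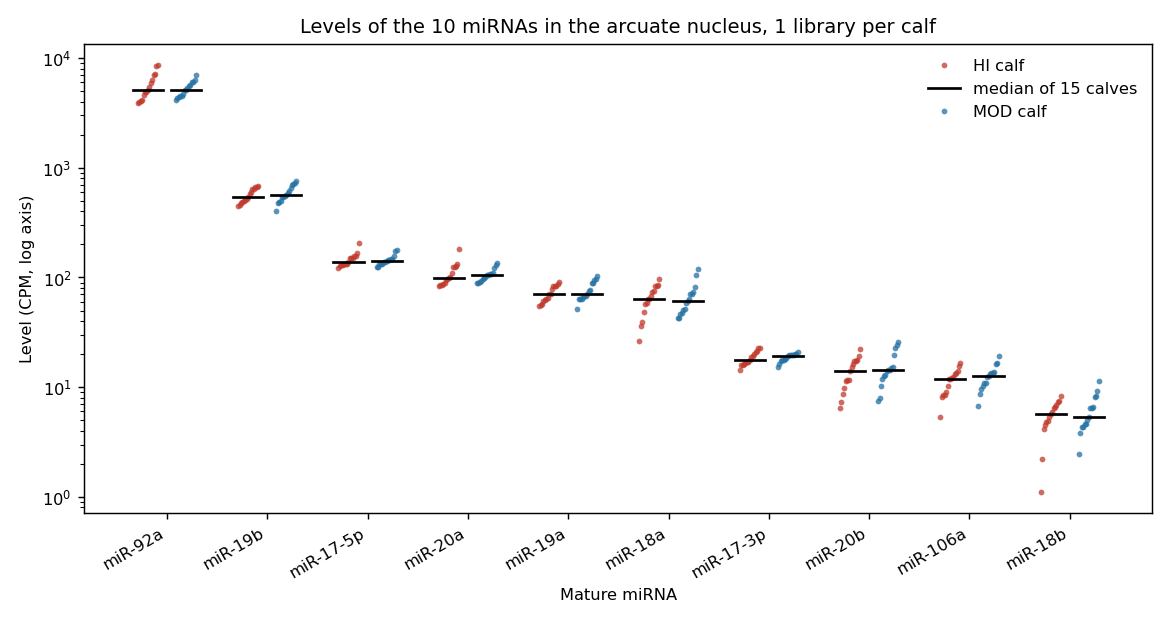
Level of each of the 10 miRNAs in CPM (log axis) in 15 HI calves (red) and 15 MOD calves (blue), 1 point per calf, sorted within each group, with the group median as a black line. miR-92a, at a median of 5143 CPM, stands above miR-19b at 557 CPM and the others, miR-20b, miR-106a and miR-18b are lowest, and the 2 diets overlap for each miRNA.

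The comparison of HI with MOD calves asks whether the plane of nutrition in early life altered these miRNAs in the ARC. No member passed the thresholds. With calls made at an adjusted p under 0.1 together with more than a 1.5-fold change, limma called 0 of the 10, against 0% of all 476 miRNAs tested. With no adjustment, 0 of the 10 had p under 0.05, against 4.41% of the tested miRNAs. The adjusted p of the members, by limma with Benjamini-Hochberg adjustment over 476 miRNAs, lay between 0.982 and 0.985.

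Values overlapped between the diets for each member. miR-92a ranged from 3899 to 8602 CPM in HI calves, with a median of 5087 CPM, and from 4161 to 7034 CPM in MOD calves, with a median of 5157 CPM. The 2 highest calves for miR-92a, HI replicates 7 and 3, were both on the HI diet, as were the 2 lowest, replicates 11 and 15. miR-17-5p ranged from 123 to 207 CPM in HI calves and from 125 to 179 CPM in MOD calves, with medians of 139.5 and 140.04 CPM.

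On the log2(CPM + 0.25) scale, miR-17-5p differed by 0.014 (SE 0.069) between HI and MOD calves and its passenger arm miR-17-3p by -0.022 (SE 0.070). These are the most narrowly determined members, with 95% intervals of -0.13 to 0.15 and -0.16 to 0.12. miR-20a differed by 0.0088 (SE 0.096), miR-92a by 0.068 (SE 0.11) and miR-18a by -0.047 (SE 0.17). miR-19a and miR-19b differed by -0.084 (SE 0.10) and -0.064 (SE 0.087).

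The members that only the X-linked cluster encodes had the largest differences of the 10, all lower in HI calves and all within their error. miR-18b ranged from 1.12 to 8.24 CPM in HI calves (median 5.64 CPM) and from 2.46 to 11.3 CPM in MOD calves (median 5.36 CPM), and differed by -0.18 on the log2 scale (SE 0.22). miR-106a ranged from 5.38 to 16.6 CPM in HI calves (median 11.9 CPM) and from 6.79 to 19.4 CPM in MOD calves (median 12.6 CPM), and differed by -0.15 (SE 0.14). miR-20b ranged from 6.51 to 22.5 CPM (median 14.03 CPM) and from 7.45 to 25.8 CPM (median 14.2 CPM), and differed by -0.14 (SE 0.18).

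Their cluster neighbour miR-363 had a difference of -0.21 (SE 0.14, unadjusted p = 0.138 and adjusted p = 0.912 by limma). The other relatives differed by -0.078 for miR-106b, 0.055 for miR-93, 0.074 for miR-25, -0.043 for miR-92b and 0.0063 for miR-32, and 0 of the 6 were called. Of the 10 members 7 had a difference below 0, against 50.6% of all tested miRNAs, with a median of -0.056 against -0.0022 over all tested miRNAs. For 9 of the 10 members the 95% interval lay within a 1.5-fold difference in either direction. The exception was miR-18b, the least abundant, whose interval ran from -0.63 to 0.27.

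Not all of these differences were stable. With the class of animal codes described below as a further term, miR-18b differed by -0.00025, miR-18a by 0.15 and miR-92a by -0.092, and with depth class as a term miR-18a differed by 0.020. No member was called under these terms.

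**Figure D2:**
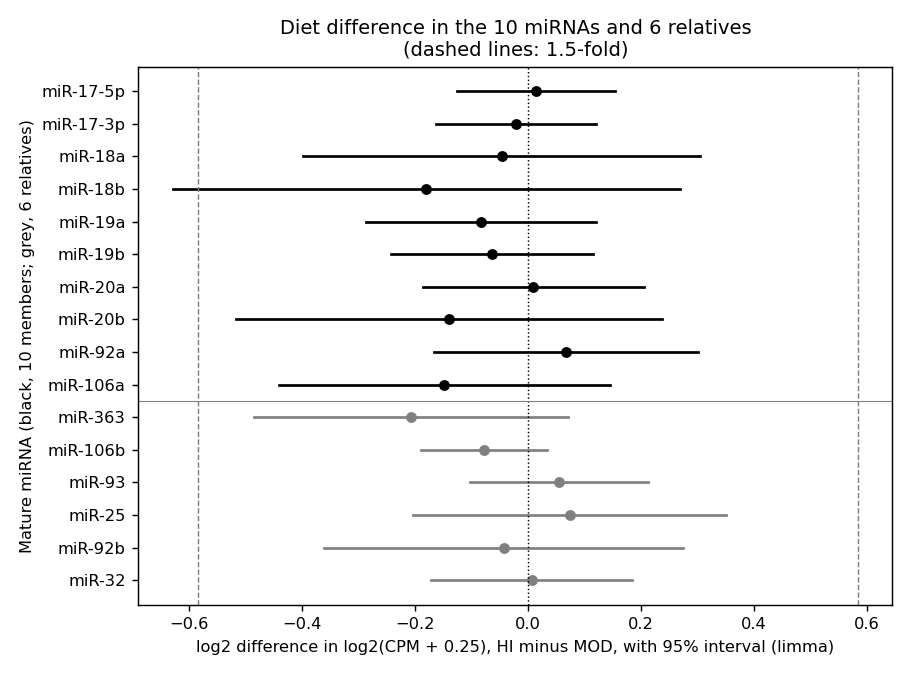
Difference between HI and MOD calves in log2(CPM + 0.25) for the 10 members (black) and 6 relatives (grey), with 95% intervals from limma over 15 calves a group, and dashed lines at a 1.5-fold difference. All 16 intervals include 0, and miR-18b's, from -0.63 to 0.27, is the widest and the one that passes a dashed line.

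Ratios between members, which do not depend on how the libraries were scaled, were compared between the diets for 6 pairs. miR-17-5p exceeded miR-17-3p, the other arm of its hairpin, by 5.40-fold to 12.6-fold, with a median of 7.39-fold. Over its X-linked relatives, miR-17-5p exceeded miR-106a by a median of 11.8-fold, miR-18a exceeded miR-18b by 11.1-fold and miR-20a exceeded miR-20b by 7.34-fold. The log2 ratio was higher in HI calves by 0.16 for miR-17-5p over miR-106a, by 0.13 for miR-18a over miR-18b and by 0.15 for miR-20a over miR-20b. None of the 3 differences passed a two-sided permutation test (adjusted p = 0.572 for each over the 6 ratios).

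The 2 miR-19 miRNAs kept the tightest of the 6 ratios, with miR-19a at 0.0908 to 0.152 of the level of miR-19b. Their log2 ratio differed by -0.020 between diets, and that of miR-92a over miR-17-5p by 0.054 (adjusted p = 0.739 for both by the same permutation test, as for the 2 arms of miR-17). For miR-17-5p over miR-17-3p the difference was 0.035.

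Members differed in how much they varied from calf to calf. miR-17-3p and miR-17-5p were among the steadiest of the tested miRNAs, with SDs on the log2 scale of 0.17 and 0.17, at percentiles 4.20 and 4.83 of all tested miRNAs. miR-19b (SD 0.23), miR-20a (SD 0.25), miR-19a (SD 0.27) and miR-92a (SD 0.32) lay between percentiles 18.1 and 35.9. miR-106a (SD 0.40), miR-18a (SD 0.48), miR-20b (SD 0.51) and miR-18b (SD 0.62) lay between percentiles 58.4 and 83.8.

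Within the miR-17-92 cluster, neighbours thus differed in spread. miR-18a, encoded between miR-17 and miR-19a, ranged from 26.4 CPM in HI replicate 7 to 119 CPM in MOD replicate 14, while miR-17-5p in all 30 calves stayed between 123 and 207 CPM. The ratio of miR-18a to miR-19a ranged from 0.289 in HI replicate 7 to 1.85 in MOD replicate 14, with a median of 0.953. HI replicate 7 had the lowest miR-18a, miR-18b and miR-20b of all calves and the highest miR-92a and miR-17-3p. This library stood apart in other measures too, with the lowest ratio of effective to actual library size of the 30 (a scaling factor of 0.699, the next being 0.782), the highest score for the list of pituitary miRNAs described below and the lowest scores for the neuron and oligodendrocyte lists. Without it miR-18a ranged from 36.1 CPM and its ratio to miR-19a from 0.430, and 17 pairs of members still had a rho of 0.5 or more in the correlations that follow. The part of these measures in its levels was not tested.

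Correlations across the 30 calves were computed on log2(CPM + 0.25) for all 45 pairs of members, with permutation p-values adjusted over the 45. Of the 45 pairs, 17 had a Spearman's rho of 0.5 or more, against 9.06% of the 113050 pairs of all tested miRNAs, and 5 had a rho of 0.8 or more, against 0.535%. A rho of 0.9 or more was reached by 1 pair, against 0.0725%. Only 1 pair had a rho of -0.5 or less, against 8.48%. In all, 20 pairs were negative and 25 positive, a split that depended on the scaling. With library size only 10 were negative and 35 positive, 13 of the negative pairs having turned positive, and 28.6% of all pairs of tested miRNAs were negative in place of 49.3%. The count of pairs with a rho of 0.5 or more was then 17, against 25% of all pairs, and that with a rho of 0.8 or more was 7, against 3.39%. A rho of -0.5 or less was then reached by 0 pairs, against 3.30% of all pairs. Points of a pair share libraries and scaling, and members of a seed family can share reads.

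The closest pair was miR-17-5p with miR-20a, 2 members of the miR-17 family from the same cluster, with r = 0.935 and rho = 0.901 (adjusted permutation p = 6.43e-05 and 5e-05, the smallest that the permutations give over these pairs). Without the 2 calves farthest from the median of miR-17-5p, r was 0.888. Within the shallower and the deeper libraries r was 0.935 and 0.926. HI replicate 3 was highest for both miRNAs, with 207 CPM of miR-17-5p and 181 CPM of miR-20a.

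Pairs that share a seed also varied together, and the 4 given first had that same smallest adjusted p. miR-18a and miR-18b had r = 0.846 and rho = 0.893, and r was 0.779 without the 2 farthest calves, 0.85 in shallower and 0.763 in deeper libraries. miR-20a and miR-20b had r = 0.705 and rho = 0.798, with r of 0.764 without the 2 farthest calves and of 0.675 and 0.649 in the depth classes. Within the X-linked cluster, miR-20b and miR-106a had r = 0.810 and rho = 0.827, with r of 0.802 without the 2 farthest calves and of 0.778 and 0.824 in the depth classes. The 2 miR-19 miRNAs had r = 0.851 and rho = 0.806, with r of 0.813 without the 2 farthest calves and of 0.819 and 0.929 in the depth classes. miR-17-5p and miR-106a, one from each cluster, had r = 0.659 and rho = 0.730 (adjusted permutation p = 0.000375 and 8.2e-05), with r of 0.675 without the 2 farthest calves and of 0.586 and 0.70 in the depth classes.

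Across seed families the members encoded in the miR-17-92 cluster were uneven, though miR-19b and miR-92a also have a precursor in the X-linked cluster. miR-17-5p varied with miR-18a, at r = 0.542 and rho = 0.584 (adjusted permutation p = 0.00573 and 0.00217), with r of 0.552 without the 2 farthest calves and of 0.401 and 0.694 in the depth classes. Across the 30 calves, no such relation was detected between miR-17-5p and either miR-19b or miR-92a. miR-17-5p had r = 0.120 and rho = 0.063 with miR-19b (adjusted permutation p = 0.543 and 0.739), and r = 0.258 and rho = 0.136 with miR-92a (adjusted permutation p = 0.211 and 0.519). In shallower and deeper libraries r was 0.096 and 0.108 for the former pair, and 0.270 and 0.517 for the latter. miR-19b and miR-92a varied with each other, at r = 0.571 and rho = 0.555 (adjusted permutation p = 0.00415 and 0.00515). For this pair r was 0.527 without the 2 farthest calves and 0.655 and 0.345 in the depth classes. With library size only its rho was 0.105. For miR-17-5p and miR-92a the values were also taken within the 2 sets of calves defined below by a pituitary list score, and the difference between the sets was not tested. They were r = 0.607 and rho = 0.383 in the 21 low-score calves (adjusted permutation p = 0.00637 and 0.110 over the 10 pairs tested there) and r = -0.179 in the 9 high-score calves. miR-18a and miR-92a, the pair with the most negative rho, had r = -0.581 and rho = -0.584 (adjusted permutation p = 0.00232 and 0.0022), with r of -0.551 without the 2 farthest calves and of -0.478 without HI replicate 7. Within shallower and deeper libraries r was -0.699 and -0.194, and within the code classes described below it was -0.446 and -0.334. In the 21 low-score and the 9 high-score calves r for this pair was -0.274 and -0.741. With library size only its rho was -0.462.

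The 2 arms of the miR-17 hairpin went in opposite directions, with r = -0.422 and rho = -0.406 (adjusted permutation p = 0.0318 and 0.0441), but this sign depended on the scaling. With values divided by library size only, rho was 0.413. Without the 2 calves farthest from the median of miR-17-5p, r was -0.321.

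**Figure D3:**
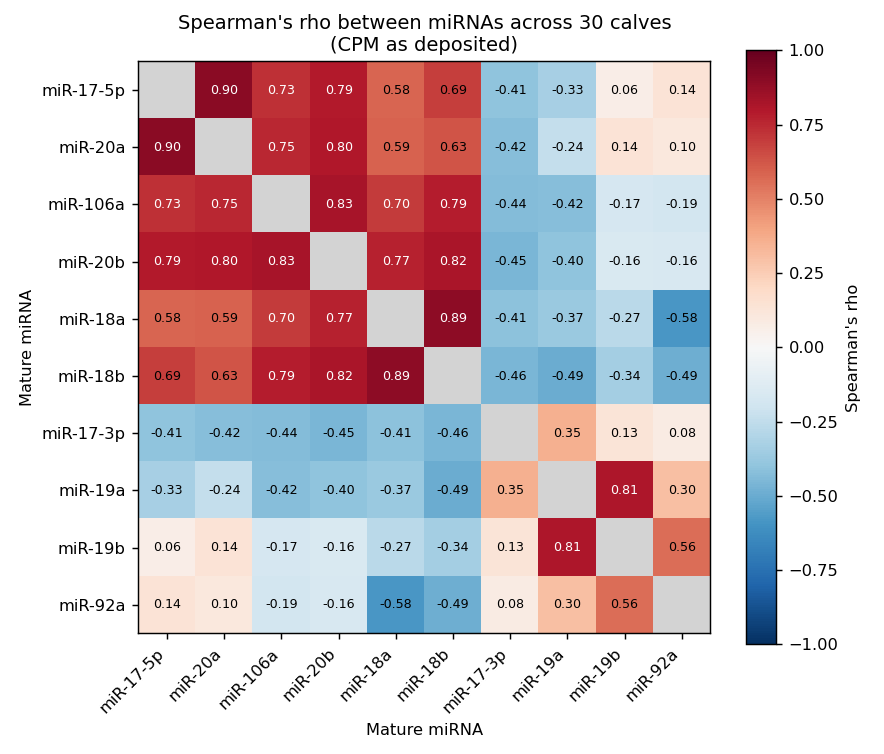
Spearman's rho between each pair of the 10 miRNAs across 30 calves, from deposited CPM (red positive, blue negative, the diagonal left grey), with the value in each cell. The miR-17 and miR-18 families, including their X-linked members, form a block of positive values with 0.90 for miR-17-5p and miR-20a, while miR-19a, miR-19b and miR-92a lie outside it.

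The ARC lies close to the pituitary stalk, and libraries differed in miRNAs typical of the pituitary, such as miR-375 and the miR-200 and miR-183 clusters. Of a list of 10 such miRNAs 8 were tested, and the summed level of these 8 ranged from 2323 to 100359 CPM in HI calves and from 2289 to 83974 CPM in MOD calves. Of the list, miR-200b was at 0 in 1 library and miR-96 in 2. Its score, the mean of the standardized log2 values of the 8, was split at its largest gap into 9 calves with a high score (5 HI and 4 MOD) and 21 with a low score (10 HI and 11 MOD).

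All 10 members moved with this score by limma over the 30 calves with diet in the model (adjusted p under 0.1), but so did 63.0% of all tested miRNAs. Per unit of the score, 6 members fell, against 34.2% of the tested miRNAs that fell. These were miR-18b by 0.42 on the log2 scale, miR-20b by 0.38, miR-18a by 0.34, miR-106a by 0.27, miR-20a by 0.11 and miR-17-5p by 0.070. The other 4 rose, against 28.8% of the tested miRNAs that rose, namely miR-19a by 0.21, miR-19b by 0.15, miR-92a by 0.15 and miR-17-3p by 0.098. Under the 3 other scalings 6 to 8 members were called, against 62.8% to 64.3% of all tested miRNAs. Over these scalings miR-92a was at 0.029 to 0.17 per unit. miR-18a, miR-18b, miR-20b and miR-106a were called under all 4 scalings. With DESeq2's size factors miR-17-5p at -0.050 (adjusted p = 0.261 by limma) and miR-20a at -0.086 (adjusted p = 0.147) were not called. With upper-quartile scaling miR-92a at 0.084 (adjusted p = 0.301) and miR-17-3p at 0.036 (adjusted p = 0.369) were not. With library size only, where the median of all tested miRNAs was -0.13, none of the 4 that rose was called by limma, with miR-19a at 0.088 (adjusted p = 0.161), miR-19b at 0.034 (adjusted p = 0.492), miR-92a at 0.029 (adjusted p = 0.552) and miR-17-3p at -0.018 (adjusted p = 0.794).

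In the miR-17 and miR-18 families, those that fell most were the X-linked ones and miR-18a. miR-20b ranged from 6.51 to 17.6 CPM (median 10.3 CPM) in the 9 calves with a high score and from 7.95 to 25.8 CPM (median 15.1 CPM) in the 21 with a low score. miR-18a ranged from 26.4 to 96.3 CPM (median 47.9 CPM) and from 42.4 to 119 CPM (median 70.5 CPM). miR-19a went the other way as deposited, from 71.2 to 104 CPM (median 89.8 CPM) in the high-score calves and from 51.3 to 88.5 CPM (median 64.5 CPM) in the low-score calves. The ranges overlapped for each of them.

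The 2 sets were not clearly separate, since the gap was 0.551 and the next largest 0.442 in units of the score. The relation was also taken within each, with p-values adjusted over all 100 relations of members with marker lists. miR-20b kept it in both, with r = -0.906 and rho = -0.883 over the 9 high-score calves (adjusted exact permutation p = 0.00543 and 0.0146) and r = -0.641 and rho = -0.718 over the 21 low-score calves (adjusted permutation p = 0.00736 and 0.00313). Without the 2 farthest calves r was -0.853 and -0.601. miR-17-5p passed in both measures in the low-score calves only, with r = -0.554 and rho = -0.543 (adjusted permutation p = 0.032 and 0.0436), and there r was -0.446 without the 2 farthest calves and rho -0.168 with library size only. For miR-18a r was -0.672 in the high-score and -0.553 in the low-score calves, of which the latter passed by r and not by rho (adjusted permutation p = 0.0331 and 0.177). In the low-score calves r for miR-18a was -0.239 without the 2 farthest calves, and rho was -0.188 with library size only. No other member had an adjusted p under 0.05 by rho within either set of calves, and whether any slope differed between the sets was not tested.

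Among the relatives, miR-25 rose by 0.33 and miR-32 by 0.18 per unit of the score and miR-363 fell by 0.29, while miR-106b, miR-93 and miR-92b were not called. Scaled by library size only, miR-25 was at 0.22 and miR-363 at -0.40, both still called by limma, while miR-32 was at 0.063 (adjusted p = 0.258), and miR-106b at -0.13 and miR-93 at -0.17 were called (adjusted p = 0.0131 and 5.79e-05). Within the miR-92a seed family, miR-363, whose precursor lies next to MIR92A-2, thus fell while miR-25 rose under both scalings. The part that pituitary tissue had in any of these values was not tested.

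**Figure D4:**
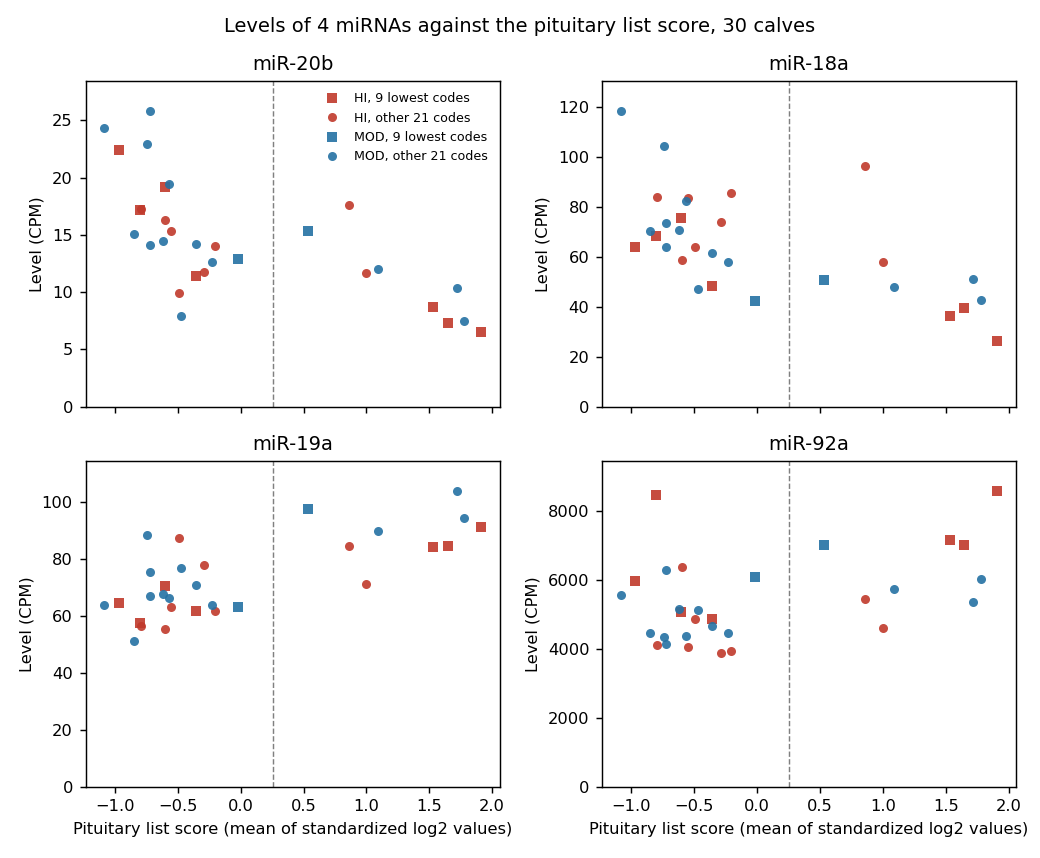
Level in CPM of miR-20b, miR-18a, miR-19a and miR-92a against the pituitary list score in 30 calves, 1 point per calf (red HI, blue MOD, squares for the 9 lowest animal codes, circles for the other 21), with a dashed line at the largest gap in the score. miR-20b and miR-18a are lower at high scores (medians of 10.3 and 47.9 CPM against 15.1 and 70.5 CPM), miR-19a is higher, and both diets lie on each side of the line.

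Members were also compared with 7 other lists of cell type miRNAs over the 30 calves. The oligodendrocyte list, of which miR-219-5p and miR-338 were tested, ranged in summed level from 1253 to 11332 CPM in HI calves and from 1810 to 5799 CPM in MOD calves. Its score varied with all 6 members of the miR-17 and miR-18 families. The list scores were not independent of each other, and over the 30 calves r with the pituitary list score was -0.612 for the oligodendrocyte and -0.794 for the neuron list. miR-20b had rho = 0.780 and r = 0.722 with its score (adjusted permutation p = 0.000333 and 0.0002), miR-20a rho = 0.760 and r = 0.868 (adjusted permutation p = 0.0004 and 0.0002) and miR-17-5p rho = 0.722 and r = 0.819 (adjusted permutation p = 0.0004 and 0.0002). Without the 2 farthest calves r was 0.773, 0.772 and 0.666 for these 3. In shallower and deeper libraries r was 0.738 and 0.653 for miR-20b, 0.895 and 0.802 for miR-20a, and 0.855 and 0.784 for miR-17-5p. For the other 3 the values were 0.753 and 0.262 for miR-106a, 0.577 and 0.461 for miR-18b and 0.571 and 0.595 for miR-18a.

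In all, 6 of the 10 members had a rho of 0.5 or more with the oligodendrocyte list, against 9.49% of the tested miRNAs outside the list, and 1 had a rho of -0.5 or less, against 10.8%. The latter was miR-17-3p, with rho = -0.648 and r = -0.657 (adjusted permutation p = 0.0022 and 0.000667), for which rho was -0.211 with library size only. The score rests on 2 miRNAs.

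The neuron list varied most with miR-92a, at rho = -0.824 and r = -0.742 (adjusted permutation p = 0.000333 and 0.0002), and r was -0.773 without the 2 farthest calves and -0.772 and -0.592 in shallower and deeper libraries. With library size only, rho was -0.369. miR-18a had rho = 0.632 and r = 0.704 with the neuron list (adjusted permutation p = 0.00223 and 0.000286), and r was 0.567 without the 2 farthest calves, 0.587 without HI replicate 7, and 0.817 and 0.144 in shallower and deeper libraries. miR-18b had rho = 0.585 and miR-19b rho = -0.599, of which the latter became 0.254 with library size only. Of the 10 members 2 had a rho of 0.5 or more, against 26.6% of the tested miRNAs outside the list, and 2 of -0.5 or less, against 19.3%. With library size only these counts became 5, against 54.2% of the tested miRNAs outside the list, and 0, against 4.28%.

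miR-20a and miR-17-5p also varied with the endothelial list of both miR-126 arms, at rho = 0.618 and 0.552 (adjusted permutation p = 0.00223 and 0.00874), with r of 0.616 and 0.601. As deposited, these were the 2 of 10 members with a rho beyond 0.5 in either direction, near the 14.8% of the tested miRNAs outside the list. With library size only, 4 members had a rho of 0.5 or more, against 5.27% of the tested miRNAs outside the list. A rho of -0.5 or less was then reached by 0 members, against 6.75%. The smooth muscle list of miR-143 and miR-145 had rho = 0.508 with miR-19b and 0.465 with miR-92a (adjusted permutation p = 0.0211 and 0.0394), which became -0.0385 and -0.146 with library size only. Of the 10 members 1 had a rho beyond 0.5 in either direction, against 21.9% of the tested miRNAs outside the list. With the lists of choroid plexus and ependyma, erythroid cells and leukocytes, 0 of the 10 members had a rho of 0.5 or more or of -0.5 or less, against 0.638%, 0.211% and 1.27% of the tested miRNAs outside each list, so these counts tell nothing particular about the members. Their rho lay between -0.325 and 0.172, between -0.263 and 0.288 and between 0.0136 and 0.328. The miR-17-92 cluster is known to be active in dividing blood cells, and the summed level of the erythroid list ranged from 21182 to 39732 CPM in HI calves and from 23713 to 40320 CPM in MOD calves.

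**Figure D5:**
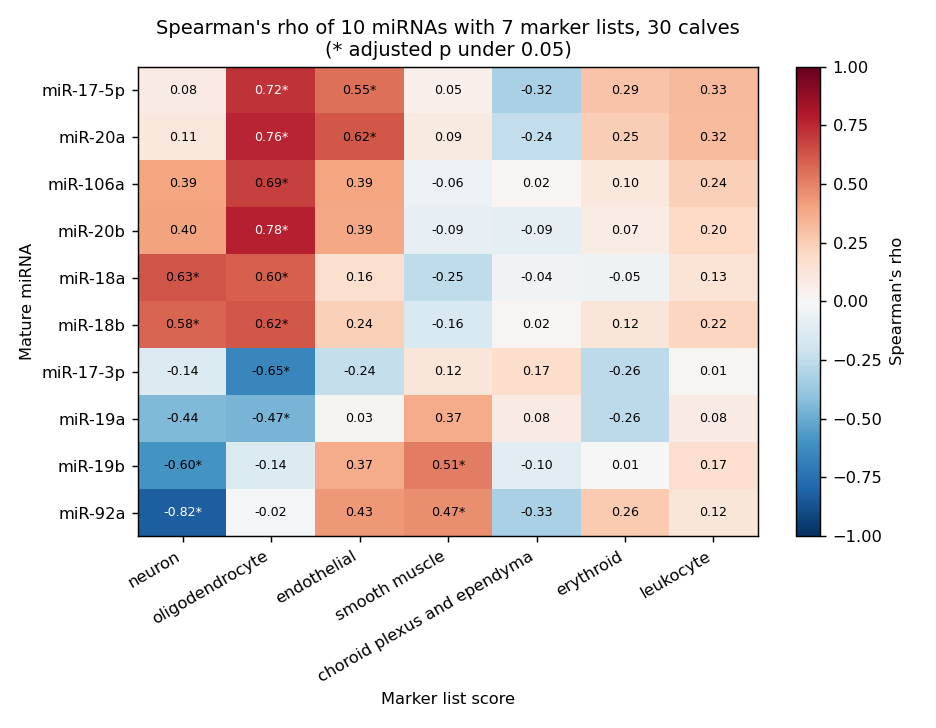
Spearman's rho of each of the 10 miRNAs with the scores of 7 lists of cell type miRNAs across 30 calves, with a star where the permutation p, adjusted over 100 relations, is under 0.05. The oligodendrocyte column is positive for the miR-17 and miR-18 families (0.78 for miR-20b) and the neuron column is most negative for miR-92a (-0.82), while the 3 columns on the right carry no star.

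Earlier work on these files set apart the calves with the 9 lowest animal codes (7 HI and 2 MOD), at a boundary drawn from the values of all miRNAs, members included, so what follows is a description. miR-92a ranged from 4884 to 8602 CPM in the 9, with a median of 7034 CPM, and from 3899 to 6374 CPM in the other 21, with a median of 4664 CPM. miR-18a ranged from 26.4 to 75.4 CPM (median 48.2 CPM) in the 9 and from 42.9 to 119 CPM (median 70.5 CPM) in the other 21. The classes overlapped for both miRNAs, although the 5 highest calves for miR-92a were all among the 9.

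With diet in the model, miR-92a was 0.48 higher and miR-18a 0.58 lower on the log2 scale in the 9, and these were the 2 members with an adjusted p under 0.1 by limma, against 28.6% of all tested miRNAs. The relative miR-25, of the seed family of miR-92a, was 0.41 higher, which became 0.12 with library size only (adjusted p = 0.348 by limma). The directions of miR-92a and miR-18a held under all 4 scalings, from 0.18 to 0.58 for miR-92a and from -0.88 to -0.48 for miR-18a. With library size only, 6 members were called, against 49.4% of all tested miRNAs, and the median of all tested miRNAs was then -0.32. Between deeper and shallower libraries limma called 0 of the 10 members, against 0% of all tested miRNAs. The median difference of the members, deeper minus shallower, was 0.18 on the log2 scale, against 0.036 over all tested miRNAs. Of the members, miR-17-5p had the smallest p, at a difference of 0.17 (unadjusted p = 0.0287 and adjusted p = 0.783 by limma).

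The members' mean standardized log2 level was compared with 460 tested miRNAs, leaving out the members and their 6 relatives. Of these 460, miR-3613a (rho = 0.717 over 30 calves), let-7a-3p (0.716), miR-219-5p (0.651), miR-362-5p (0.629) and miR-16a (0.615) varied most like it. The least alike of the 460 were miR-369-5p (rho = -0.753), miR-411a (-0.726) and miR-181c (-0.682). Of the 6 relatives, miR-363 was most like it, at rho = 0.690, above all but 2 of the 460, and miR-92b least, at -0.508. The members themselves, each a part of this mean, followed it unevenly. In the miR-17 and miR-18 families rho with the mean ran from 0.571 (miR-18b) to 0.873 (miR-20a). It was 0.388 for miR-19b, 0.103 for miR-92a, 0.074 for miR-19a and -0.196 for miR-17-3p. Likeness to this mean is thus mainly likeness to those families.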

How the data were processed

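MicroRNA was measured in the ARC of 15 HI and 15 MOD calves, 1 library per calf. Per the paper's methods, adapters were removed with Cutadapt, reads of 15 to 28 bases kept, other bovine short RNAs removed, and known miRNAs quantified with miRDeep2 and Bowtie on ARS-UCD1.2. The normalization is not given in the sources used here. The labels name a stranded RNA kit, the methods a small RNA kit. The signal values the authors deposited are decimals with the form of CPM over TMM-scaled library sizes. Reads were recovered by dividing by the value of 1 read, and 94.5% to 97.9% of values under 200 reads came out whole, within 0.01 of a read. The main test was therefore limma and not a count test.

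The miRNAs described and all lists were chosen with earlier results of these data known. The filter was edgeR's filterByExpr on recovered reads (476 kept). limma (lmFit, eBayes with trend) was fitted to log2(CPM + 0.25) of all 476, with Benjamini-Hochberg adjustment, and a miRNA was called at an adjusted p under 0.1 with over 1.5-fold change (classes and scores: adjusted p alone). A fold change on this scale understates that of low miRNAs. Single values used two-sided permutation tests with 100000 resamples, exact for 9 calves. The miRNAs named are the members, 6 relatives of the same clusters or seeds, and the 5 most and 3 least like the members' mean. Count tests on recovered reads called 0 (edgeR's quasi-likelihood) and 1 miRNA (DESeq2's Wald), in 29 calves, without HI replicate 6, of whose lowest values 94.7% were whole, just under the limit set for a count test. Other scalings, pseudocounts, no filter, further terms and leaving out each calf were tried. Gene order came from RefSeq, by name only, since its build differs from that of the files. The code was tested on simulated data. Floors allow for counting error alone. The versions were limma 3.58.1, DESeq2 1.42.0 and edgeR 4.0.16 in R 4.3.3, and scipy 1.17.1 in Python 3.11.15.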

Additional observations from a re-analysis of the deposited data

How the results depend on the processing

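Over 12 alternatives that changed the pseudocount, the scaling, the filter, the test or the terms of the model, 0 members were called between the diets. The same held with each calf left out in turn (from 0 to 0 members called). Of all tested miRNAs, DESeq2's Wald test called 1, miR-2419-3p, and leaving out a calf gave from 0 to 1 called, with 1, again miR-2419-3p, without HI replicate 11 or without MOD replicate 15. Planned counting of miRNAs listed under the same name as 1 miRNA changed nothing, because no name was listed more than once. No paired analysis was possible because each calf belongs to 1 diet and the labels give animal codes but no replicate numbers. Those printed here are only names. Per the paper, the diet groups were stratified to balance farm of origin, sire, age and bodyweight. None of these was a term in the models used here.

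Differences near 0 changed sign. With library size only, miR-17-5p differed by -0.029 and miR-20a by -0.034 between the diets on the log2 scale, and with upper-quartile scaling miR-17-3p differed by 0.024. miR-18a differed by 0.0056 with edgeR's quasi-likelihood test, 0.011 with DESeq2's Wald test, 0.020 with a depth term, 0.15 with a code term and 0.012 with the pituitary score as covariate. With the code term miR-20a differed by -0.0058 and miR-92a by -0.092. With a calf left out the differences ranged from -0.024 to 0.037 for miR-17-5p, from -0.044 to 0.0027 for miR-17-3p, from -0.094 to 0.038 for miR-18a and from -0.047 to 0.035 for miR-20a. The other 6 members kept their direction with each calf left out.

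In the 21 other animal codes the diet difference in the log2 ratio was -0.035 for miR-17-5p over miR-17-3p, -0.0076 for miR-20a over miR-20b, 0.038 for miR-19a over miR-19b and -0.105 for miR-92a over miR-17-5p. The last was also -0.056 in the deeper libraries and -0.10 in the 9 lowest codes. With a calf left out the ranges were -0.014 to 0.073, 0.10 to 0.20, -0.038 to 0.015 and -0.0042 to 0.091 for these 4 ratios, 0.099 to 0.21 for miR-17-5p over miR-106a and 0.080 to 0.18 for miR-18a over miR-18b.

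The rho of miR-17-5p with miR-17-3p was 0.41 with library size only, -0.30 without the 2 farthest calves, -0.43 in shallower, -0.75 in deeper libraries, -0.28 in the 21 other codes, and -0.72 and -0.21 at high and low pituitary list scores. That of miR-17-5p with miR-18a was 0.65 in deeper libraries and 0.42 and 0.46 at high and low scores, with miR-20a 0.77 at high scores, and with miR-106a 0.73 in deeper libraries, 0.50 in the 9 lowest codes and 0.67 at high scores. With miR-19b it was -0.0082 without the 2 farthest calves and -0.12 in the 9 lowest codes, and with miR-92a -0.036 with library size only and -0.20 both in the 9 lowest codes and at high scores. For miR-18a with miR-18b it was 0.77 in deeper libraries, and for miR-20a with miR-20b 0.62 there and 0.57 at high scores. Sets of 9 calves limit what these p-values can show. Those for deeper libraries, the 9 lowest codes and the pituitary list scores were chosen after seeing the data, as were the alternatives for the class counts, where 6 members were called between code classes with library size only, against 49.4% of all tested miRNAs. The cause of these changes was not tested. Depth limits miR-18b most, which rested on as few as 6 reads.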
